A study of Mus musculus with 28 samples.

Results

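The digestive proteases of the exocrine pancreas were followed as 10 genes, Cela1, Cela2a, Cela3b, Ctrb1, Ctrc, Ctrl, Cpa1, Cpb1, Prss1 and Prss2, out of 35928 gene symbols measured. The rule names the genes and uses no measured value. The study placed human APOBEC3B (A3B), a cytidine deaminase, fused to turboGFP at the Col1A1 locus of mice under a tetracycline-inducible promoter, and drove it with CAGs-rtTA3, a transactivator that is made constitutively and in most tissues rather than in acinar cells alone. A3B mice carried both transgenes and were given doxycycline at 625 ppm for 10 days. Pancreas was sequenced from 6 A3B mice (44, 49, 53, 125, 137 and 153) and 2 control mice (45 and 168), and liver from 6 A3B mice (44, 48, 49, 125, 137 and 153) and the same 2 controls. A second set held livers and lungs of other mice, 3 A3B and 3 control samples of each, in which the labels list 10 to 14 days of doxycycline for the A3B mice and 15 days for the controls.

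The sources did not agree on the controls. Groups were taken from the sample titles. The genotype labels of the 8 livers from these mice matched the titles, with the A3B transgene but no driver in control mice 45 and 168. For pancreas, the labels gave both control samples as A3B + CAGS-rtTA and the A3B samples of mice 44 and 137 as A3B alone. The labels also listed 10 days of doxycycline for these controls, and the methods of the study likewise have control littermates on the diet, whereas one of its figure legends has reference controls without the drug. Which holds for these libraries was not settled. In the second case doxycycline and A3B cannot be told apart. The A3B transcript was not analysed here in these libraries, so the labels are not checked against the transgene itself. The counts of calls, the ratios, the shares and the comparison with liver are therefore also given without the pancreases of mice 44 and 137, while both controls had to be kept. Likeness to other genes, transcript forms and values with total counts are given for all 8 pancreases only.

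Acinar cells make these enzymes as inactive zymogens, store them in granules and release them into the duct when cholecystokinin or acetylcholine is received. In the gut, enteropeptidase cleaves trypsinogen to trypsin, and trypsin then activates the others. Trypsins cut after basic residues, chymotrypsins after large hydrophobic residues and elastases after small ones, and the carboxypeptidases remove residues from the end of the peptides that remain. Transcription of these genes in acinar cells is known to depend on PTF1, a complex of Ptf1a with an E-box partner and Rbpj or Rbpjl, together with Nr5a2 and Bhlha15.

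Promoter sequence was available for 9 of the 10 genes, all but Ctrc, from RefSeq on GRCm38.p6. Each promoter covered 250 bases before and 50 bases after the start of the gene. The stretches below run from base -151 to base -2 before the RefSeq start, 5′ to 3′ on the strand of the gene. They show the member that differed most between groups and the member with every A3B value above both controls in TPM. The others are the denominator used for the ratios and Prss2, the more abundant trypsinogen among the members. Capitals mark the letters TATAAA of a TATA box. They also mark TTTCCC, which the Rbpj-type partner of PTF1 binds, and the receptor motif CAAGGNCA, in which N is any base, each on either strand.
Cela1 (chr15:100687922-100688071, minus strand): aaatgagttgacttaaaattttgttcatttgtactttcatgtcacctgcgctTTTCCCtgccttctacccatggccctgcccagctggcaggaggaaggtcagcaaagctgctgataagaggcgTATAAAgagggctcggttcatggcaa
Ctrb1 (chr8:111691012-111691161, minus strand): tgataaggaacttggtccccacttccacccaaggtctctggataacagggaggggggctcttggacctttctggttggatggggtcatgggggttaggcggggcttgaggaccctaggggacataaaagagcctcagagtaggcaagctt
Cpa1 (chr6:30639067-30639216, plus strand): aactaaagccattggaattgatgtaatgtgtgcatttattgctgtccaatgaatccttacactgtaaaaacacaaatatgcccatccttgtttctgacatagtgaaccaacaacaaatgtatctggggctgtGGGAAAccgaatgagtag
Prss2 (chr6:41521625-41521774, plus strand): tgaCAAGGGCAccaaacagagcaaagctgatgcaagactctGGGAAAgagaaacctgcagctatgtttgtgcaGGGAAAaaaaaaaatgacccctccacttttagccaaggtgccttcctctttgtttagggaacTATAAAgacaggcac

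The letters TTTCCC were found in 6 of the 9 promoters (Cela1, Cela2a, Cpa1, Ctrb1, Prss1 and Prss2), against 25.2% of 32851 promoters. The longer form TTTCCCA was in 4 of 9 (Cela2a, Cpa1, Ctrb1 and Prss2), against 8.06%. An E-box, CANNTG, was in all 9, but also in 72.3% of all promoters, and an E-box together with TTTCCC was in 6 of 9, against 18.0%. TATAAA was in 4 of 9 (Cela1, Cpb1, Prss1 and Prss2) against 13.6%, and CAAGGNCA, which Nr5a2-type receptors bind, in 3 of 9 (Cela3b, Ctrl and Prss2) against 6.71%. All motifs were searched on both strands of the 300-base window, and TTTCCCA always contains TTTCCC. The Ctrb1 match to TTTCCCA began at base -195, outside the stretch printed. Cela1 and Ctrb1, which went furthest apart in the transcript data, both held an E-box and TTTCCC, so that these letters did not separate them.

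The 16 kallisto libraries held between 64673909 and 118153010 estimated counts assigned to genes. Both control pancreases were dominated by a few transcripts, with 62.4% and 59.7% of all counts in their 10 most abundant genes, compared with 12.1% to 20.6% in the A3B pancreases. Control pancreas 45 had the lowest number of genes at 1 TPM or more, 7739 against 11214 in the other control and 13220 to 14626 in the A3B mice. TPM is a transcript's level corrected for its length and for the total of the library. The markers of acinar cells other than proteases (11 genes of enzymes and granule proteins, among them the amylase Amy2a5, the lipase Pnlip and, also in the granule list given later, Zg16 and Gp2) summed to 149027 and 156317 TPM in the controls, which fits the label pancreas, and to between 21316 and 47490 TPM in the A3B mice. All 11 fell by the edgeR test described with the proteases, and 9 did with scaling by total counts. With TMM that test called 14.9% of all genes lower and 17% higher. With TMM, ductal, fibroblast and macrophage and neutrophil markers moved the other way, with 6 of 9, 5 of 6 and 4 of 7 genes higher and none lower (9, 6 and 5 higher with total counts, on which 70.4% of all genes were called higher and 1.1% lower). Their summed levels were 2508 to 4948 TPM against 123 and 201 TPM for the ductal list, 963 to 1486 against 39.6 and 172 for fibroblasts, and 1144 to 3574 against 43.6 and 543 for macrophages and neutrophils. Past the threshold with TMM, the largest change of each marker list was -7.83 for Pnlip (acinar), 3.03 for the keratin Krt7 (ductal), 3.04 for the collagen Col1a1 (fibroblast), 4.02 for Cd68 (macrophage and neutrophil), 0.96 for the cadherin Cdh5 (endothelial) and -1.91 for amylin, Iapp (endocrine). Of 8 endocrine markers 2 fell with TMM, whereas 4 were higher and none lower with total counts. Of 4 endothelial markers 1 rose with TMM and 4 were higher with total counts. None of the 7 T cell, 7 B and plasma cell, 6 adipocyte or 7 hepatocyte markers passed in edgeR with TMM, at an unadjusted p under 0.05 or adjusted, or in DESeq2. The 2 controls were far apart on several of these lists, with sums in mice 45 and 168 of 0.364 and 38.0 TPM for T cells, 4.40 and 203 TPM for B and plasma cells and 52.7 and 655 TPM for adipocytes. The A3B mice spanned 11.7 to 127, 8.89 to 380 and 139 to 1136 TPM, with mouse 49 highest for T cells and mouse 53 for the others. With total counts 3 hepatocyte markers, Ttr, Apob and Fgb, were higher, and that list summed to 104 to 945 TPM in the A3B mice against 19.0 and 68.0 TPM in the controls. Without mice 44 and 137 the acinar, fibroblast and endothelial counts with TMM were the same, the ductal and the macrophage and neutrophil lists had 5 and 3 genes higher, and 4 endocrine markers fell. In bulk tissue, fewer acinar cells and less RNA of a gene per acinar cell cannot be told apart, and the part of these other cell types in the protease results was not tested.

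Because so much of a control library is acinar RNA, the choice of scaling sets where 0 lies. With TMM scaling, which assumes that most genes do not differ, the median log2 difference (A3B minus control) over all 19142 genes tested was 0.09, and with scaling by total counts alone it was 2.29. TPM follow the total-count scale. Values below are therefore given first as TPM per pancreas, then as the edgeR log2 difference with TMM scaling and, where it changes the reading, with total counts.

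The elastases Cela1 and Cela2a were the 2 most abundant of the 10 proteases in the control pancreases, and Cela1 had the lowest log2 difference of the 10. Cela1, elastase 1, was at 156927 and 135096 TPM in control mice 45 and 168, and at 944, 857, 494, 2477, 4578 and 5444 TPM in A3B mice 44, 49, 53, 125, 137 and 153. Every A3B pancreas was thus far below both controls, and the mean was 2466 ± 2103 TPM (SD, n = 6) against 146011 ± 15437 TPM (SD, n = 2), 59.2-fold lower. The edgeR log2 difference was -8.05 (SE 0.97, adjusted p = 0.000355), and with total counts -5.70 (adjusted p = 0.000139).

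Cela2a, an elastase that favours larger side chains than elastase 1, was at 78195 and 84878 TPM in the controls and at 12514, 8252, 5127, 6049, 8354 and 12939 TPM in A3B mice 44, 49, 53, 125, 137 and 153. The groups did not overlap, and the A3B mean of 8872 ± 3239 TPM was 9.19-fold below the control mean of 81536 ± 4725 TPM. Its edgeR log2 difference was -5.26 (SE 0.54, adjusted p = 0.000203) with TMM and -2.94 with total counts (adjusted p = 6.79e-05). Cela3b, which is known to have little elastase activity despite its name, was at 30271 and 37094 TPM in the controls and at 20194, 11128, 9894, 14425, 13610 and 14181 TPM in the A3B mice in the same order. Here too all 6 were lower than both controls, although the difference in mean was only 2.42-fold in TPM. The edgeR log2 difference was -3.61 (SE 0.47, adjusted p = 0.000502) with TMM and -1.29 with total counts (adjusted p = 0.00404).

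The chymotrypsins split. Ctrb1, chymotrypsinogen B and the main chymotrypsinogen in these libraries, was at 25751 and 24605 TPM in the controls and at 113874, 57983, 35180, 58496, 81755 and 101822 TPM in A3B mice 44, 49, 53, 125, 137 and 153. Every A3B value was above both controls in TPM, with a mean of 74852 ± 29745 TPM (SD, n = 6) against 25178 ± 810 TPM (SD, n = 2), or 2.97-fold. With TMM scaling the direction turned and the test was not passed: the edgeR log2 difference was -0.83 (SE 0.60, adjusted p = 0.318), and the A3B values of 13.88 to 15.75 log2 CPM on the TMM scale lay around and below those of the controls, 16.40 and 15.12. With total counts it was 1.54 (adjusted p = 0.0155), which was still less than the median of 2.29 of all genes on that scale. With limma on log2(TPM + 1) it was 1.47 (adjusted p = 0.0149), above the median of 1.24 of all genes on that scale. Its direction thus depended on the scaling, but with TMM, total counts and log2(TPM + 1) alike it had the highest log2 difference of the 10.

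Ctrc, caldecrin, whose product is known in humans to degrade trypsinogen, was at 6028 and 4710 TPM in the controls and at 28.7, 51.9, 235, 323, 153 and 485 TPM in A3B mice 44, 49, 53, 125, 137 and 153. The A3B mean of 213 ± 173 TPM was 25.2-fold below the control mean of 5369 ± 932 TPM, and the edgeR log2 difference was -7.16 (SE 1.03, adjusted p = 0.00125). Most of the control signal, 5872 and 4553 TPM, was assigned to a transcript annotated as a processed transcript without a coding sequence, and the transcript ENSMUST00000105781.7, annotated as coding, held 77.7 and 106 TPM in the controls and 7.67 to 17.2 TPM in the A3B mice. RefSeq lists the mouse gene as a transcribed pseudogene, so that its level is reported here as RNA and not as enzyme. Ctrl, a chymotrypsin-like protease, was at 11604 and 9123 TPM in the controls and at 10290, 5237, 2601, 3678, 4254 and 5927 TPM in the A3B mice, so that mouse 44 overlapped the controls in TPM. Its edgeR log2 difference was -3.42 (SE 0.56, adjusted p = 0.00154) with TMM, and -1.004 with total counts, where it missed the threshold (adjusted p = 0.0548).

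Both carboxypeptidases fell with TMM. Cpa1, carboxypeptidase A1, was at 6700 and 7819 TPM in the controls and at 8769, 5435, 3545, 4157, 6370 and 7353 TPM in A3B mice 44, 49, 53, 125, 137 and 153. In TPM the groups overlapped, with means of 5938 ± 1967 and 7260 ± 791. The edgeR log2 difference was -2.63 (SE 0.48, adjusted p = 0.0027) with TMM, and -0.30 with total counts (adjusted p = 0.469). Cpb1, carboxypeptidase B1, which removes basic residues, was at 7015 and 7223 TPM in the controls and at 3230, 2214, 1791, 1806, 1954 and 2760 TPM in the A3B mice. All 6 values lay below both controls, and the edgeR log2 difference was -3.70 (SE 0.43, adjusted p = 0.000325) with TMM and -1.38 with total counts (adjusted p = 0.00216).

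Of the trypsinogens, Prss2 was at 31430 and 36500 TPM in the controls and at 28193, 20781, 17019, 21597, 18056 and 23733 TPM in A3B mice 44, 49, 53, 125, 137 and 153. The A3B values were all lower, by 1.58-fold in the mean, and had the smallest spread among the members, with an SD of 0.27 on the log2 scale. The edgeR log2 difference was -3.03 (SE 0.44, adjusted p = 0.000886) with TMM and -0.68 with total counts (adjusted p = 0.0629). Prss1 was a minor transcript, at 22.8 and 4.58 TPM in the controls and at 56.9, 7.89, 25.3, 4.91, 4.30 and 7.43 TPM in the A3B mice, and the groups overlapped. Its edgeR log2 difference of -2.35 (SE 1.14, adjusted p = 0.153) did not pass the test. Leaving out control mouse 45 turned it to 0.31 (adjusted p = 0.899), and leaving out A3B mouse 44 brought it to -3.26 (adjusted p = 0.0325).

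**Figure D1:**
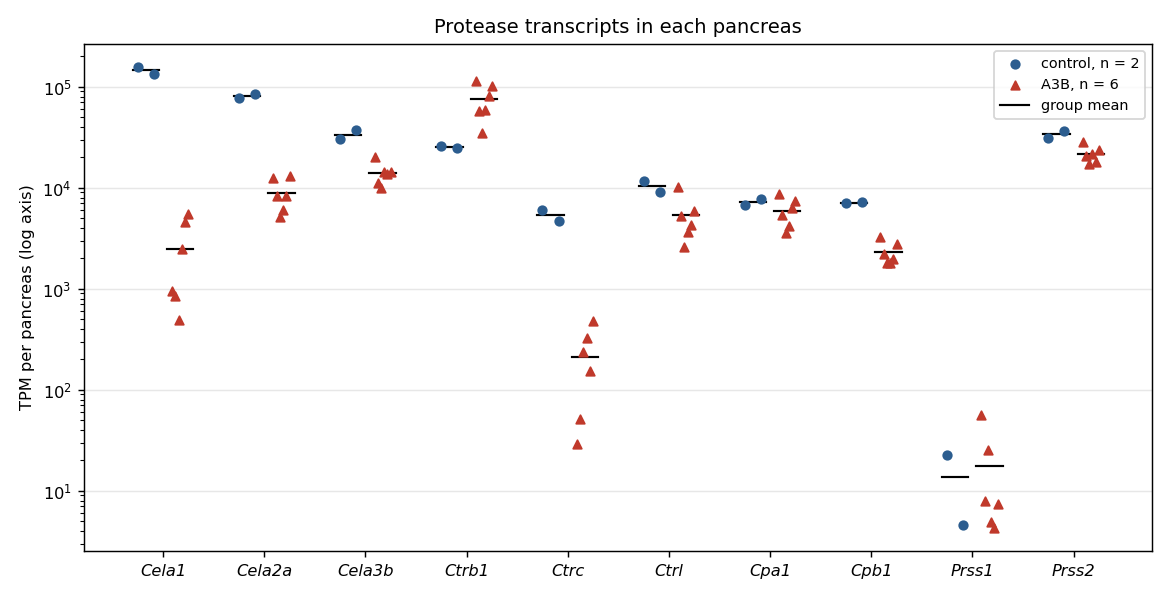
TPM of the 10 proteases in each pancreas, on a log axis. Circles are the 2 control mice, triangles the 6 A3B mice and bars the group means. Cela1, Cela2a and Ctrc of the A3B mice sit well below the controls, Ctrb1 sits above them, and Cpa1 and Prss1 overlap.

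By edgeR with TMM, 8 of the 10 proteases fell and none rose, nor did any at an unadjusted p under 0.05. Over all genes tested the same rule called 14.9% lower and 17% higher. The same 8 genes had all 6 A3B values below both controls on the TMM log2 scale, which held for 18.9% of all genes. DESeq2 also called 8 lower, as did upper-quartile scaling and the fit without A3B pancreases 44 and 137. Relative to Tbp, the TATA-binding protein, 8 lay below both controls at the smallest p that the exact two-sided permutation test over the 28 assignments allows (p = 0.0357). With total counts 5 were lower, Cela1, Cela2a, Cela3b, Ctrc and Cpb1, and 1, Ctrb1, was higher, where 1.1% of all genes were lower and 70.4% higher. The values with TMM moved most without control 45. Without it the log2 difference was -7.29 for Cela1, -6.16 for Ctrc, -2.43 for Ctrl, -2.04 for Cpa1 and -2.43 for Prss2, each still called, and -0.036 for Ctrb1 (adjusted p = 0.977). Tbp itself was at 1.62 and 6.004 TPM in the controls and at 8.78 to 17.4 TPM in the A3B mice.

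**Figure D2:**
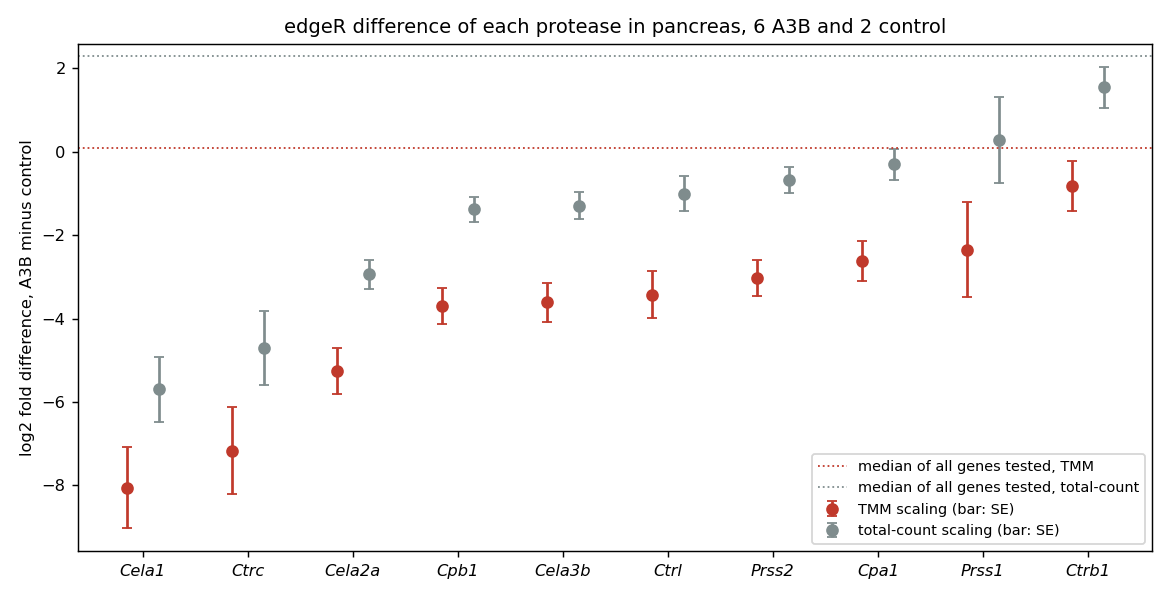
log2 difference (A3B minus control) of each protease in pancreas from edgeR, with bars of 1 SE, under TMM scaling and under scaling by total counts. Dotted lines mark the median of all genes tested on each scale, 0.09 and 2.29. All 10 members lie below the median of their own scale, from -8.05 for Cela1 to -0.83 for Ctrb1 with TMM.

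As a group, the 10 proteases made up 35.5% and 34.8% of all TPM in control pancreases 45 and 168, and 19.9%, 11.3%, 7.63%, 11.4%, 14.0% and 17.6% in A3B mice 44, 49, 53, 125, 137 and 153. Their make-up changed as well. In the controls Cela1 held 41.6% ± 3.8 of the summed protease TPM (SD, n = 2) and Cela2a 23.3% ± 1.7, so that these 2 elastases held 66.4% and 63.4% together. In the A3B mice they held between 6.79% and 10.5% together, with Cela1 at 1.75% ± 1.28 (SD, n = 6). Ctrb1 went from 7.18% ± 0.13 in the controls to 54.1% ± 4.9 in the A3B mice. Without mice 44 and 137 these A3B means were 52.0% ± 4.9 for Ctrb1 and 1.68% ± 1.19 for Cela1 (SD, n = 4). Ctrb1 was the fifth most abundant of the 10 in both controls and the first in all 6 A3B mice, whereas Cela1 was first in both controls and between sixth and eighth in the A3B mice. Prss2 was second in all 6 A3B mice, with 16.8% ± 3.8 against 9.70% ± 1.16. These shares are a description and depend on each other, since they add to the whole.

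**Figure D3:**
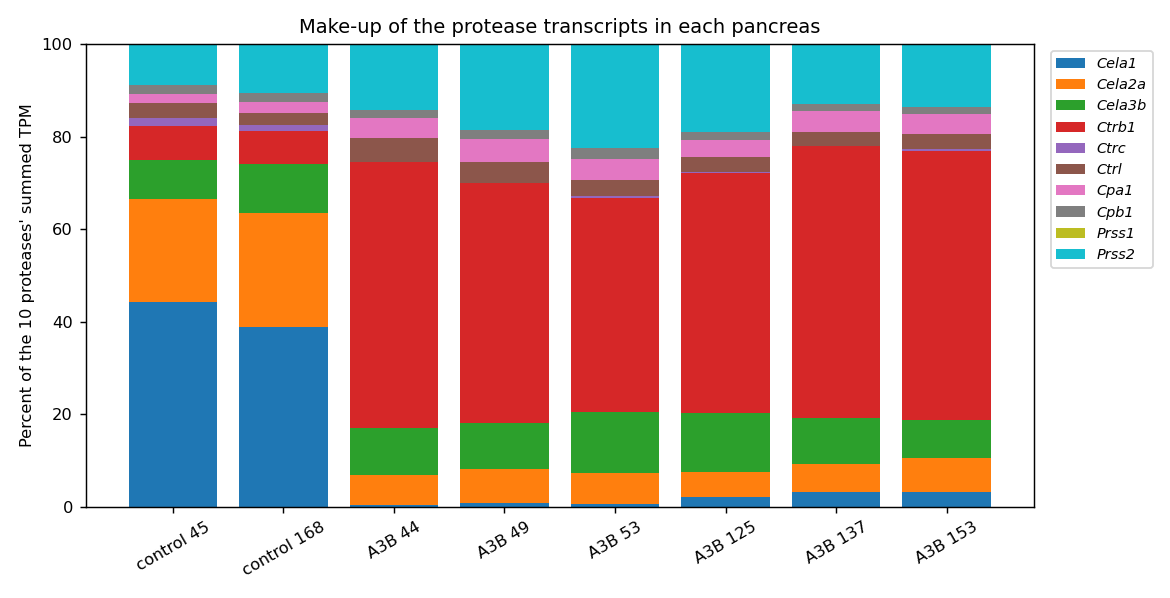
Share of each protease in the summed TPM of the 10 proteases, per pancreas. Cela1 and Cela2a fill 66.4% and 63.4% of the control bars and at most 10.5% of an A3B bar, and Ctrb1 fills 46.3% to 58.8% of the A3B bars.

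Ratios between enzymes within a library do not depend on its scaling, and Cpa1 was used as the denominator. Cela1 was 23.4 and 17.3 times Cpa1 in control mice 45 and 168, and 0.108, 0.158, 0.139, 0.596, 0.719 and 0.740 times Cpa1 in A3B mice 44, 49, 53, 125, 137 and 153. It thus went from far above Cpa1 to below it in every A3B mouse. The log2 difference of the ratio was -6.06, at the smallest p the exact permutation test allows (p = 0.0357) and with a limma adjusted p of 4.84e-13. Cela2a was 11.3 ± 0.6 times Cpa1 in the controls and 1.49 ± 0.15 times in the A3B mice, a log2 difference of -2.93 (exact p = 0.0357, limma adjusted p = 0.00122). This ratio was nearly constant among the A3B mice, from 1.31 to 1.76. Ctrc was 0.751 ± 0.210 times Cpa1 in the controls and 0.00328 to 0.0777 times in the A3B mice, a log2 difference of -4.85 (exact p = 0.0357, limma adjusted p = 5.92e-12).

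Cpb1 and Cela3b moved less against Cpa1. Their log2 differences were -1.32 and -0.95, all 6 A3B ratios were below both controls (exact p = 0.0357 for each), and neither passed limma (adjusted p = 0.113 and 0.313). Cpb1 did so without A3B pancreas 44 (adjusted p = 0.0437) and without A3B pancreas 53 (adjusted p = 0.0445). Ctrb1 went up against Cpa1 in all 6 mice, from 3.50 ± 0.49 times to 12.4 ± 1.7 times, a log2 difference of 1.82 (exact p = 0.0357), but this did not pass limma (adjusted p = 0.0767). It passed without A3B pancreas 44 (adjusted p = 0.0105), without A3B pancreas 53 (adjusted p = 0.0192) and without both 44 and 137 (adjusted p = 0.018). Ctrl, Prss2 and Prss1 differed by -0.73, -0.32 and 0.46, with exact p of 0.0714, 0.357 and 0.714.

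By limma 3 of the 9 ratios were lower and none higher (1 at an unadjusted p under 0.05), where 0.329% of 19141 genes were called lower and 61.2% higher against Cpa1. On the non-overlap of the groups, 5 were below both controls and 1 above, where 0.34% of all genes were below and 64% above. The background is thus far from even. Without mice 44 and 137 the same 3 ratios were lower. Adjusted over all 19141 genes, the smallest exact p becomes 0.0658, so the exact test alone calls no ratio. Limma estimates the spread over all genes, which share the error of Cpa1, so its p-values are less secure than the values per mouse. With Cpb1 as the denominator 3 members were lower, Cela1, Cela2a and Ctrc, and 3 were higher, where 0.146% of all genes were lower and 98.1% higher.

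**Figure D4:**
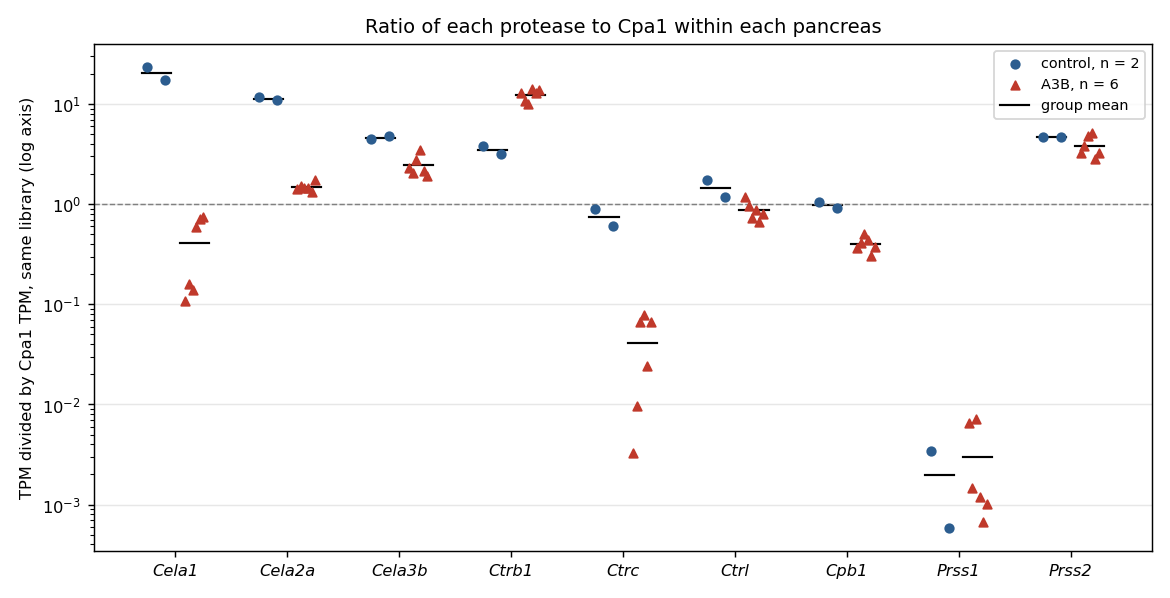
TPM of each protease divided by the TPM of Cpa1 in the same pancreas, on a log axis, with the dashed line at equality. Circles are the 2 control mice, triangles the 6 A3B mice and bars the group means. Cela1 crosses from about 20.3 to 0.41, Ctrb1 moves up from 3.50 to 12.4, and Prss2 and Ctrl overlap.

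Of the 45 ratios between pairs of members, 32 did not overlap between the groups, where 56.5% of the 21533203 ratios between pairs of genes with a mean of 10 TPM or more did not. The count over members is to be read against that background. Without mice 44 and 137 it was 34 of 45, against 59.9%. The widest change was between Cela1 and Ctrb1. Cela1 was 6.09 and 5.49 times Ctrb1 in the controls, and Ctrb1 was between 17.9 and 121 times Cela1 in the A3B mice, a difference of -7.88 on the log2 scale. Cela2a differed from all 9 other members without overlap, Ctrl from 4 and Prss1 from 3. The members that kept their proportions best were Cela3b with Ctrl (-0.22), Cpa1 with Prss2 (0.32), Cela3b with Cpb1 (0.36) and Ctrl with Prss2 (-0.41), in each of which the groups overlapped. Cela1 and Ctrc, the most reduced, also overlapped in their ratio, which differed by -1.19.

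Among the A3B mice, Ctrc had the widest range, 16.9-fold from mouse 44 to mouse 153. Prss1, which was not called, ranged 13.2-fold, and Cela1 11.0-fold from mouse 53 to mouse 153. Prss2 ranged only 1.66-fold, Cpb1 1.80-fold and Cela3b 2.04-fold. For 8 of the 10 genes mouse 53 was the lowest A3B pancreas. Mouse 44 was the highest for 7 of the 10 but had the lowest Ctrc, so that the order of the mice was not the same for all enzymes. Without mice 44 and 137 the range was 9.35-fold for Ctrc, 5.17-fold for Prss1 and still 11.0-fold for Cela1. In log2 TPM the 2 control pancreases were close to each other except for Prss1, with SDs of 0.03 to 0.25 for the other 9. On the TMM log2 CPM scale they were further apart, at 18.92 and 17.68 for Cela1 and 14.44 and 12.87 for Ctrc, with TMM factors of 0.21 and 0.443.

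Part of the signal of some members came from transcripts that are not the full coding form. In Cela2a, transcripts annotated as retained introns held 40.1% and 26.7% of its TPM in the controls and 1.30% to 16.3% in the A3B mice. In Cpb1, the retained-intron transcript held 30.6% and 8.58% in the controls and 0.0363% to 1.86% in the A3B mice. With the most abundant transcript of each gene only, the log2 differences were -5.09 for Cela2a and -3.67 for Cpb1, and the same number of members, 8, was lower. Sequence shared with other genes limits some assignments. Of the 31-base words of the main transcript, 69.3% in Prss1 also occur in other genes, chiefly Gm5771 and Gm10334, 45.2% in Cela3b (Cela3a), 26.9% in Cela2a (Ctrc, which overlaps it on the same strand) and 22.5% in Prss2 (Try4 and Try5). The main transcripts of Cela1, Ctrb1, Ctrc, Ctrl and Cpa1 shared none. Other transcripts were not examined in this way, and the words that Cela2a shares with Ctrc lie in other Ctrc transcripts. In A3B pancreases 44 and 49 the main Ctrc transcript held only 9.40 and 17.3 of 28.7 and 51.9 TPM. Whether the counting used strand is not given in the sources used here, and Ctrc and Cela2a also overlap Casp9 on the other strand, as Ctrc does the antisense gene Ctrcos.

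The trypsinogen paralogs did not move together. Of 10 measured, 4 fell by the edgeR test with TMM (Try4, Try10, 2210010C04Rik and Gm10334) and 1 rose. Over all genes that test called 14.9% lower and 17% higher. The largest fall was that of 2210010C04Rik, another trypsinogen-like gene, from 9949 ± 1089 to 1425 ± 725 TPM (log2 difference -5.15, adjusted p = 0.000308). The rise was that of Gm2663, from 37.7 and 29.5 TPM in the controls to between 1329 and 14566 TPM in the A3B mice (log2 difference 4.598, adjusted p = 0.0254). Try5 was at 12251 and 8375 TPM in the controls and at 21773 to 42253 TPM in the A3B mice. Like Ctrb1 it was higher in TPM but not with TMM, where the edgeR log2 difference was -1.06 (adjusted p = 0.147). DESeq2 called Try5 lower (-1.11, adjusted p = 0.0461). A sum over Prss1, Prss2 and these paralogs removes the doubt over sequence that they share with each other. Their summed TPM was 84470 and 69384 in the controls and 47973 to 102465 in the A3B mice. The groups overlapped in TPM only through A3B mouse 44, at 102465. The next highest A3B value, 66825 in mouse 53, was below both controls. The summed log2 difference with TMM was -2.95 (SE 0.54, adjusted p = 0.00263).

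Among other pancreatic proteases Cela3a fell (log2 difference -4.58, adjusted p = 0.00495), and Klk1, a tissue kallikrein, did not pass in edgeR with TMM (log2 difference -1.14, adjusted p = 0.0963), was called lower by DESeq2 (-1.19, adjusted p = 0.0249) and was higher with total counts (1.13, adjusted p = 0.0341), with means of 6841 TPM in A3B mice and 3011 TPM in controls. Of 8 inhibitors and activators of zymogens 2 fell and 3 rose, where 14.9% of all genes were called lower and 17% higher. The largest fall was that of Spink1, the trypsin inhibitor of the acinar granule, from 4270 ± 1156 to 1031 ± 303 TPM (log2 difference -4.61, adjusted p = 0.000163). Serpini2, a serpin of acinar cells, fell by 3.37. Cathepsin B (Ctsb), a lysosomal protease that can activate trypsinogen, rose from 8.43 and 38.2 TPM in the controls to between 422 and 1082 TPM (log2 difference 2.67, adjusted p = 0.00144), and Ctsd, cathepsin D, rose by 1.84. The third to rise, Tmprss15, enteropeptidase, was listed at 0 in both controls and at 0.0483 to 0.0912 TPM in the A3B mice, and no fold is given for so low a level.

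Of 11 granule and exocytosis proteins 5 fell and 1 rose. The counts with TMM in this paragraph are to be read against 14.9% of all genes called lower and 17% higher. The largest fall was that of the granule membrane protein Cuzd1 (log2 difference -3.55), and Gp2 and Zg16, which line the zymogen granule, fell by 3.38 and 3.36. The only rise was that of the syntaxin Stx3 (0.77, adjusted p = 0.0493). Of 5 receptors for secretagogues and trypsin, F2rl1, the receptor cleaved by trypsin, rose (1.56, adjusted p = 0.0206), from 0.410 and 1.20 TPM in the controls to between 6.78 and 16.4 TPM, and none fell. The cholecystokinin receptor Cckar did not pass (-0.73, adjusted p = 0.205). Among 8 acinar transcription factors 3 fell, Rbpjl (-3.68), Bhlha15 (-3.21) and Ptf1a (-1.19), and Nr5a2 rose (0.76, adjusted p = 0.0475). Without mice 44 and 137 the rises of Gm2663, Stx3 and Nr5a2 were not called, Klk1 was called lower, and the other calls of the lists named here were kept. With total counts these lists shifted upwards with the median of all genes: 6 of the 8 transcription factors and 6 of the 8 inhibitors and activators were then higher, Ptf1a among the former (1.10, adjusted p = 0.00686), while Rbpjl and Bhlha15 did not pass and Spink1 was still lower (-2.09, adjusted p = 0.000335). Of the trypsinogen paralogs 3 were then higher and 2 lower, of the granule and exocytosis proteins 7 higher and 3 lower, and of the receptors 4 of 5 were higher, against 70.4% of all genes, Cckar among them (1.68, adjusted p = 0.00199).

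Genes that averaged 10 TPM or more in the 8 pancreases numbered 6563, and among them those that followed the geometric mean of the 10 proteases closely included Cuzd1, Slc39a5, Rnase1 and Clps. The likeness was measured as the SD over the 8 pancreases of the log2 ratio of the gene to that mean, and was 0.43 to 0.47 for these genes. Among the members themselves it was 0.22 for Cpb1, 0.35 for Cela3b and 0.53 for Ctrl, but 1.56 for Ctrb1, 2.07 for Ctrc and 2.36 for Cela1. Each member is itself part of that mean, which tends to lower its SD, so members and other genes are not measured on a par.

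In liver, which served as the background, Cela1 was the one protease at 4.88 TPM or more in every library. It was at 64.0 and 78.0 TPM in control mice 45 and 168 and at 19.6, 14.7, 12.1, 4.88, 9.40 and 19.9 TPM in A3B mice 44, 48, 49, 125, 137 and 153. All 6 were below both controls, with means of 13.4 ± 5.9 (SD, n = 6) and 71.0 ± 9.9 TPM (SD, n = 2). The edgeR log2 difference was -2.68 (SE 0.51, adjusted p = 0.0262). It was the only one of 9 members tested in liver that was called, where 2.41% of 17376 genes were called lower and 12.9% had all A3B livers below both controls. Prss1 was listed at 0 in all livers but one and was not tested. The call was lost without A3B liver 137 (-2.55, adjusted p = 0.0608), without control 45 (-3.04, adjusted p = 0.11), without control 168 (-2.43, adjusted p = 0.23) and with total counts (-2.18, adjusted p = 0.0504), each time in the same direction. Its transcripts stood in other proportions in the control livers than in the control pancreases. The 1108-base form, at 90323 and 97248 TPM in the control pancreases, was at 6.36 and 1.51 TPM in the control livers, and in the A3B livers at 11.2 TPM in mouse 44, 6.07 in mouse 153, 4.33 in mouse 49 and at most 0.164 in the other 3. A 443-base form was at 61941 and 34741 TPM in the control pancreases, at 32.1 and 33.0 TPM in the control livers and at 3.15 to 9.51 TPM in the A3B livers.

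The second set of libraries, deposited as TPM per gene, gave the same comparison in other mice. It held livers of A3B mice 23, 28 and 70 and control mice 11, 91 and 92, with doxycycline for 10 to 14 days in the A3B mice and 15 days in the controls by the labels, which give control 11 both transgenes. Cela1 was at 52.7, 120 and 110 TPM in the controls and at 5.37, 9.44 and 9.59 TPM in the A3B mice, so that the groups did not overlap. The limma log2 difference was -3.33 (SE 0.41, adjusted p = 0.013), where 1.86% of 11507 genes were called lower. The call was lost without control 91 (adjusted p = 0.0808), control 92 (adjusted p = 0.0822) or A3B liver 23 (adjusted p = 0.0548). In lung (3 A3B mice with 10 days of doxycycline and 3 control mice with 15, of which mouse 87 has the driver alone by its label) Cela1 was at 3.01 to 6.15 TPM in the A3B mice and at 2.95 to 3.76 TPM in the controls (log2 difference 0.34, adjusted p = 0.251). Ctrl was the one other member at 1 TPM or more on average, and it did not pass in liver (0.76, adjusted p = 0.204) or lung (-0.17, adjusted p = 0.32).

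**Figure D5:**
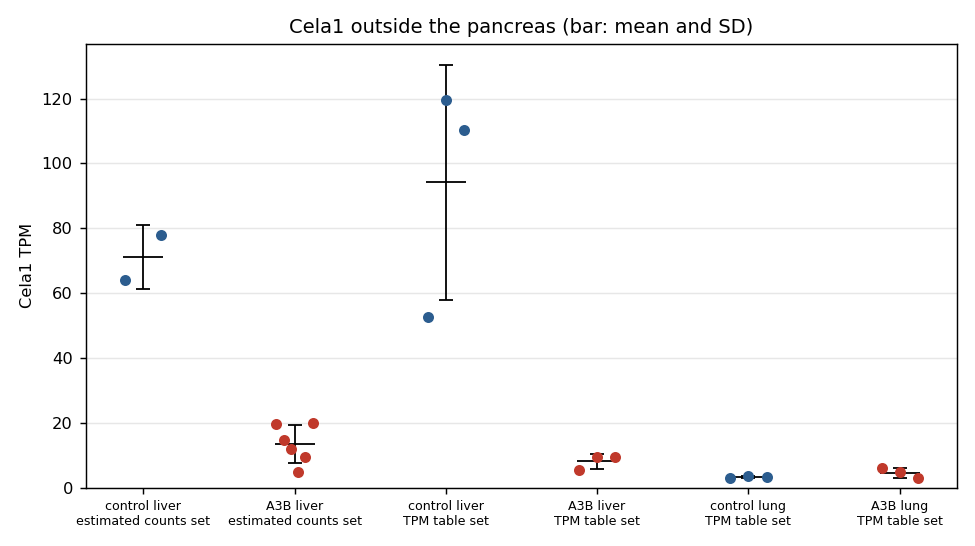
Cela1 TPM in each liver and lung of both sets, with the mean and SD of each group. The A3B livers reach at most 19.9 TPM and the control livers start at 52.7 TPM, while the lungs of both groups lie between 2.95 and 6.15 TPM. The sets were normalized separately.

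Of the other members, 7 were higher in 3 livers than in the other 5. Ctrb1 was at 152, 371 and 18.8 TPM in the livers of A3B mice 44 and 153 and control mouse 45, and at 0 to 0.651 TPM in the other 5. In these 3 livers 7 members (all but Cela1, Ctrc and Prss1) stood at 0.106% to 0.216%, 0.27% to 0.41% and 0.0158% to 0.0728% of the level in the pancreas of the same mouse, and Ctrb1 was 8.98, 12.3 and 4.19 times Cpa1, next to 12.99, 13.8 and 3.84 times in the matching pancreas. Cela2a was 1.60, 1.25 and 3.26 times Cpa1 in these livers, next to 1.43, 1.76 and 11.7 times in the matching pancreas, so that control mouse 45 differed between its tissues in this ratio. Ctrc was present in all 8 livers, at 1.12 to 20.1 TPM, and was highest in A3B liver 48. That library also had the highest mitochondrial share of counts, 21.5%, with 10.1% in the next, A3B liver 49. Without these 3 livers Cela1 differed by -3.43 (SE 0.67), which did not pass (adjusted p = 0.243), in a fit that called 1 gene lower and none higher over all genes. Carry-over from pancreas was not tested.

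The effect in pancreas was more negative than in liver for Cela1 by -5.22 on the log2 scale (SE 1.59, adjusted p = 0.0434) and for Ctrc by -8.60 (SE 1.89, adjusted p = 0.011), as an interaction term over all 16 libraries. The other 8 members did not pass, and 5.02% of 19927 genes were called in this direction. Mice 48 and 53 gave 1 tissue each, and the fit with the mouse as a block had to leave them out. In that fit Ctrc still passed (-8.80, adjusted p = 0.0136) and Cela1 did not (-5.03, adjusted p = 0.17). Without these 2 libraries and with the mouse ignored, Cela1 had already missed the threshold (-5.02, adjusted p = 0.0558) and Ctrc passed (-8.42, adjusted p = 0.0187). Without the pancreases of mice 44 and 137 Cela1 was not called (-5.41, adjusted p = 0.0762) and Ctrc was (-8.29, adjusted p = 0.0224). The Cela1 call was close to the threshold and was lost in 10 of the 16 fits that left out 1 library, with adjusted p of 0.0508 to 0.218 in those. These were the fits without A3B pancreas 44, 49, 53 or 125, control pancreas 45, A3B liver 44, 137 or 153, or either control liver. The Ctrc call was lost in 2 of the 16, without control liver 45 (adjusted p = 0.058) and without control liver 168 (adjusted p = 0.0876). In 5 of the 6 A3B livers a 310-base Ctrc transcript, at 1.60 to 20.0 TPM, was the largest part of the Ctrc signal. The same held in control livers 45 and 168, at 1.58 and 1.12 TPM. In the control pancreases a 956-base transcript was the largest part, at 5872 and 4553 TPM. The Ctrc interaction thus compares tissues that differed in the main form of its RNA.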

How the data were processed

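RNA-seq of mouse pancreas, liver and lung was compared within tissue. For 16 libraries the authors deposited, per transcript, the estimated counts and TPM that kallisto gave on mm10 transcripts, without later scaling. For 12 further libraries they deposited TPM per gene. The TPM table held 0 columns of per-sample values that were left unused. Transcripts were assigned to genes with GENCODE M21 (116728 of 119414 matched; the others, 0.225% to 1.46% of the estimated counts of a library, were left out), and estimated counts and TPM were summed per gene. Estimated counts were rounded, filtered with filterByExpr, TMM-scaled and tested with edgeR 4.0.16 (robust quasi-likelihood F test). Ratios were tested as log2(TPM + 1) minus that of Cpa1 with limma 3.58.1 (trend, robust) and with a two-sided exact permutation test. P-values were adjusted by Benjamini-Hochberg over all genes tested, at a threshold of 0.05. The code was tested on simulated data. The TPM table was to be described only, and limma was added there because its values allow it.

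The members, gene lists and tests were chosen with earlier results of these data known. The text names the 10 members, the largest rise and fall of each list, genes whose role is set beside a member and, of the 5 genes most like the members, those reported here. Another gene of these lists is not reported here. Others named (such as Ctsd, Gp2, Zg16 and Try5) were chosen after their values were seen. Each mouse gave 1 library per tissue. The estimated counts per library (64673909 to 118153010 assigned to genes) leave little counting error for the abundant members, so the number of mice, 2 controls in each tissue, limits the precision. The tissues were paired by mouse number, taken to mean the same animal, except that mice 48 and 53 gave 1 tissue each. The deviations of a mouse from its group correlated between tissues at -0.025 to 0.292 over 16748 genes, mice 45 and 168 sharing one value by construction. DESeq2 1.42.0, other scalings, filters and denominators, single transcripts and fits without each sample were tried as alternatives.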

Additional observations from a re-analysis of the deposited data

Results flagged for a closer look

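The A3B effect on Cela1 in pancreas minus that in liver was -5.22 on the log2 scale and that on Ctrc -8.60. Both were picked out because the interaction term passed its test. Prss1 was at 0.0839 TPM in the liver of A3B mouse 153 and at 0 in the other 5 A3B livers, a single library apart from its group. This spread test looks at the highest and lowest sample in a group of 6, and chance alone picks out about 1 in 20 groups, of which 40 were examined.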

How the results depend on the processing

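The number of members lower in A3B pancreas was 8 with TMM and 5 with both total-count scaling and limma on log2(TPM + 1), where 1 member, Ctrb1, was higher in place of 0. Leaving out 1 pancreas at a time gave 8 to 9 lower and 0 higher. Ctrb1 reversed to 1.54 with total counts and to 1.47 with limma on log2(TPM + 1), and Prss1 to 0.28 and 0.10, with a range of -3.26 to 0.31 when 1 pancreas was left out. Cela1, Cela2a, Cela3b, Ctrc and Cpb1 kept direction and call under the alternatives run, although relative to Tbp this rests on an unadjusted exact p of 0.0357, and summing the trypsinogens cannot move them. Over all genes, 3252 were higher and 2848 lower with TMM, 3700 and 3297 with DESeq2, 13483 and 210 with total counts, and 12739 and 188 with limma on log2(TPM + 1).

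For the ratios, 3 members were lower, and 0 by the exact permutation test, because its smallest p does not survive adjustment over all genes. The number higher was 0, but 3 with Cpb1 as the denominator, 1 with ratios of estimated counts, 1 with a pseudocount of 0.1 and 1 without the A3B pancreases of mice 44 and 137. It was 0 to 1, and the number lower 3 to 4, when 1 pancreas was left out. With Cpb1 as the denominator Cela3b reversed to 0.36, Ctrl to 0.59 and Prss2 to 0.999. With Ctrb1 as the denominator 4 members were lower, Cpb1 being the addition (-3.14, adjusted p = 0.0108), and Prss1 reversed to -1.37. Over all genes 349 were lower and 540 higher against Ctrb1. Against Cpa1, Prss1 ranged from -0.70 to 1.61 when 1 pancreas was left out. Apart from the constructions named, the cause was not tested.

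In liver the number lower was 1, and 0 with total counts or without the 3 livers with Ctrb1 above 10 TPM, an alternative chosen after seeing the data. It was 0 to 1 when 1 liver was left out. Without those 3 livers Cela2a reversed to -2.65 and Ctrl to -1.48. With 1 liver left out Cela2a ranged from -0.78 to 2.40, Ctrl from -0.51 to 2.60 and Cpa1 from -0.017 to 12.30. In the TPM table livers the number lower was 0 to 1 when 1 liver was left out. The interaction called 2 members lower, 1 with the mouse as a replicate block, 1 with the same 14 libraries and the mouse ignored, 1 without the A3B pancreases of mice 44 and 137, and 0 to 2 when 1 library was left out. The block was possible only there, since no mouse gave samples to both groups. The fits without 44 and 137, the limma fits of the TPM table and the interaction without each library or with the mouse ignored were also chosen after seeing the data.

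With 2 controls per tissue, a leave-out fit with 1 control assumes that it varies as the other group does. Low TPM in liver, as for Cpa1 and Prss2 in most mice, cannot show a difference at this depth.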
